A study of Mus musculus with 6 samples.

Results

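Genes of glycolysis and of the response to low oxygen were examined in mouse epidermis at embryonic day E18.5, on 6 expression arrays. The set named 37 genes, chosen by function with earlier results of these data known: 27 that carry glucose to pyruvate, lactate or the mitochondrial gate, and 10 of the hypoxia-inducible factor (HIF) system. A gene was measured where a probe set named it alone, which held for 34 of the 37 among 30063 genes on the arrays. Of these, 24 belonged to glycolysis and 10 to the HIF system. Pfkfb2 shared its probe set with a pseudogene, and no probe set was named for Gpi1 or Eno1, so these 3 were not analysed here.

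The 3 Rptor cKO arrays came from epidermis of embryos with a conditional knockout of Rptor, and the 3 wild-type arrays from wild-type littermates of the same age. Rptor encodes Raptor, the subunit through which the kinase complex mTORC1 binds its substrates. Embryos were classed by hand and then genotyped, and the epidermal sheet was lifted from the dermis with ammonium thiocyanate, per the labels' protocols. No promoter of the deleting recombinase and no deleted exon is named in the sources used here. Arrays are numbered as in the labels, Rptor cKO 1 to 3 and wild type 4 to 6, and all values are log2 intensities summarised per probe set, each probe set on a scale of its own.

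Glycolysis turns glucose into pyruvate in the cytosol. Cells that turn pyruvate into lactate can run it without oxygen, and dividing cells also draw building blocks from it. HIF is a transcription factor of an alpha and a beta subunit. In the presence of oxygen the prolyl hydroxylases of the Egln family mark the alpha subunit for the VHL ubiquitin ligase, and without oxygen the subunit stays and raises genes of glucose uptake, glycolysis and vessel growth. mTORC1 is known to raise HIF-1 alpha protein and glycolytic genes in cultured cells, and epidermis, which has no vessels, is known as a tissue of low oxygen and high lactate production.

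The RNA for Rptor itself read 6.54, 6.82 and 6.72 in Rptor cKO and 6.98, 7.46 and 7.0 in wild type. The groups did not overlap, and the difference of -0.46 (SE 0.15) did not pass the threshold (limma adjusted p = 0.0988). The 19 keratinocyte markers listed for the basal and upper layers all read, on each array, above the median that negative controls had there. By Xist and Y-linked genes, Rptor cKO held 2 female embryos and 1 male, and wild type 3 males. The Rptor cKO male was array 2. Each fit without it set 2 females against 3 males, where sex and genotype cannot be told apart. Markers of the spinous and cornified layers moved with genotype: 11 of 12 fell and none rose, with a median difference of -2.02 and a mean level of 8.25 to 9.56 in Rptor cKO against 10.48 to 11.13 in wild type. With Rptor cKO array 2 left out 5 fell, and with wild-type array 6 left out 6 fell. Of 7 proliferation markers 3 rose and none fell (mean level 8.13 to 8.22 against 7.53 to 7.97), but none passed without Rptor cKO array 2, and 1 without Rptor cKO array 3 or wild-type array 4 or 5. Of 8 fibroblast markers 4 rose and none fell (6.00 to 6.53 against 5.54 to 5.72), 1 without Rptor cKO array 2 or wild-type array 6, 2 without Rptor cKO array 1 or wild-type array 5. Of 6 Langerhans cell and macrophage markers 3 fell and none rose (4.32 to 4.55 against 4.74 to 4.84), 2 without Rptor cKO array 2 or with dim genes left out. Of the 3, 1 read below the median of negative controls on all 3 Rptor cKO arrays and on 1 wild-type array. Of 6 endothelial markers 1 rose, a call lost when Rptor cKO array 1 or 2 or wild-type array 6 was dropped, and 3 read below the median of negative controls on each of the 6 arrays, while none of 5 red blood cell, 8 muscle or 5 melanocyte markers passed. Of 6 hair follicle markers Edar (1.08, SE 0.14) and Krt17 (0.77, SE 0.18) rose and none fell, with a mean level of 8.07 to 8.25 against 7.52 to 7.86. Just 1 of them passed with array medians subtracted, or when any 1 array other than Rptor cKO array 1 was dropped. Of 7 basal markers Itgb4 rose (0.98, SE 0.11) and Krt15 fell (-2.31, SE 0.35), with a mean level of 9.08 to 9.43 against 9.20 to 9.50. These 4 markers, and Krt1 further on, were named after their values were seen. The part of these shifts in layer, growth and other cells in the results below was not tested. In whole sheets, fewer cells of a kind and less RNA per cell cannot be told apart.

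One gene of the set rose, 10 fell and 23 did not pass the test, which was limma with Benjamini-Hochberg adjustment over all 30063 genes and a threshold of 0.05. Over all genes tested, 9.60% passed in either direction, 3.64% as higher and 5.96% as lower. Among the members the shares were 33.3% of the 24 glycolytic genes and 3 of the 10 HIF genes. With dim genes left out of the test, 14.6% of 20200 genes passed. The members that passed there were 8 of 24 glycolytic genes and 3 of 10 HIF genes. The median difference (Rptor cKO minus wild type) was -0.19 for the glycolytic genes and -0.22 for the HIF genes, beside 0.05 over all genes tested. The glycolytic count was 5 without Rptor cKO array 1, wild-type array 5 or wild-type array 6, and 4 without Rptor cKO array 2, where the share of all genes that passed was 2.99%. The male arrays alone set 1 Rptor cKO array against 3 wild type. There Slc2a3 differed by 1.82, Pfkp by -0.96, Aldoc by -1.5, Pdk3 by -1.5 and Egln3 by -2.17. Hk1 differed by -0.74, Pfkm by -0.45, Tpi1 by -0.44, Pgk1 by -0.43, Egln1 by -0.70 and Ankrd37 by -0.74. With a lone Rptor cKO array, sex cannot be told apart from the spread of embryos, and its part was not tested. The HIF median was -0.033 without wild-type array 5. The groups did not overlap for 15 of the 34 genes, 13 of them lower in Rptor cKO, where 29.0% of all genes did not overlap, 12.5% with Rptor cKO lower.

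**Figure D1:**
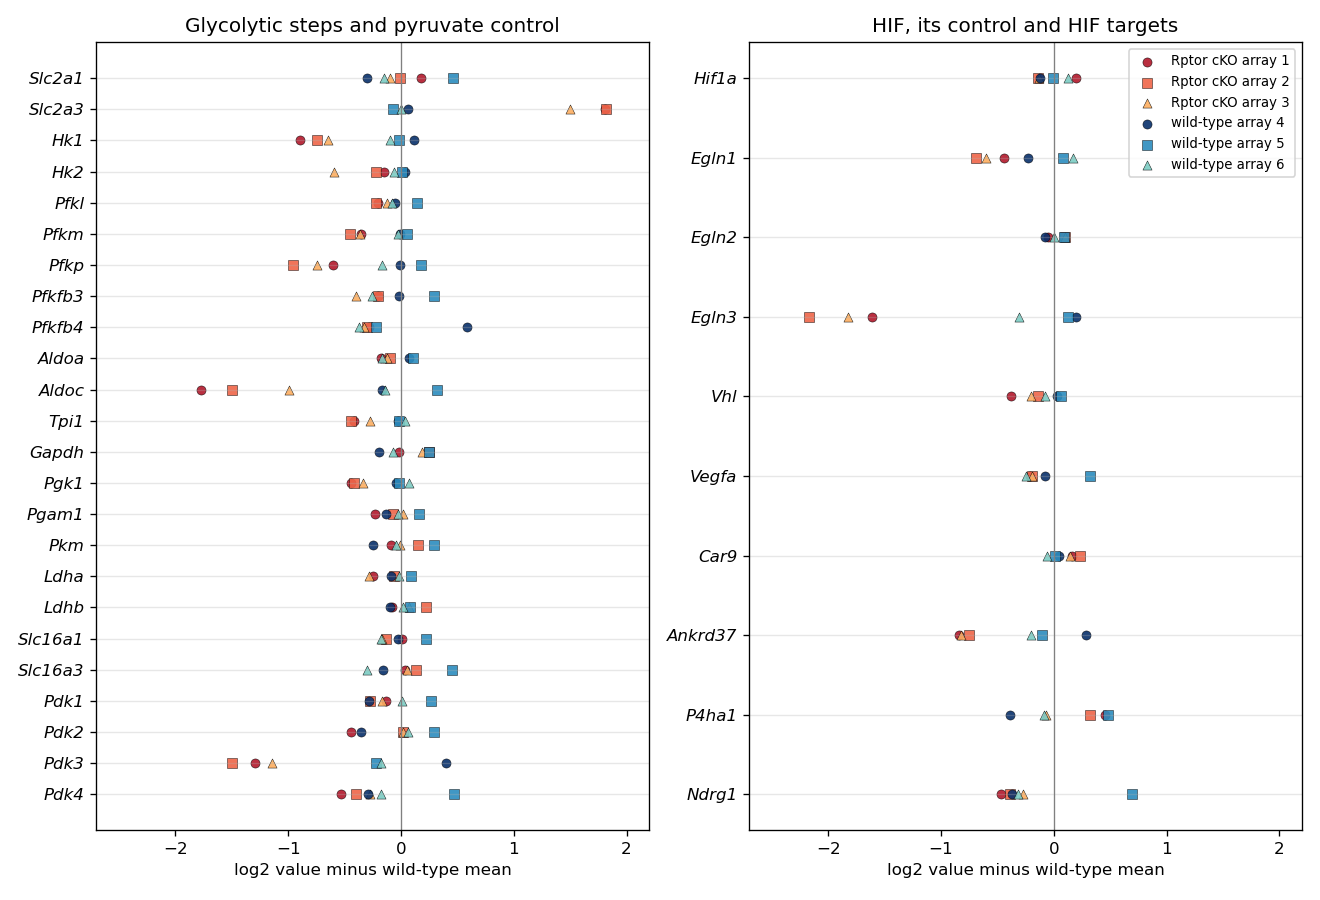
Value of each of the 34 genes on each array, as the log2 value minus the mean of the 3 wild-type arrays (horizontal axis), with glycolytic genes on the left and HIF genes on the right. Red and orange symbols are the Rptor cKO arrays and blue and green symbols the wild-type arrays; Slc2a3 stands to the right for all 3 Rptor cKO arrays, while Egln3, Aldoc and Pdk3 stand to the left.

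HIF binds DNA at a core of 5 bases, ACGTG or GCGTG. These letters were searched on both strands in the 250 bases before each annotated start site, in RefSeq promoters of GRCm38.p6, the assembly that mm10 names. A promoter stood in that table for 32 of the 34 measured genes; Slc2a3 and Ndrg1 had none there. Of the 32 genes, 30 held a match in at least one promoter, a share of 93.8%, beside 46.8% of the 18008 tested genes with a promoter in the table. Among the 10 genes that fell, 9 held a match, and among the 22 genes that did not pass the test, 21 did. The stricter core ACGTG stood in 6 of the 10 and in 15 of the 22, beside 20.1% of the tested genes. A match says that the letters are there and is not evidence of binding, and the shares are a description without a test. A gene with several start sites counted if any of its promoters matched. Neither the number of start sites nor the G and C content was matched between the members and the tested genes. The 6 letters CACGTG, which hold ACGTG on both strands and are also the site of other factors, stood in 6 of the 32 genes.

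Upstream sequences are shown for 3 genes called as lower (Egln3, Egln1 and Pgk1). They are also shown for 2 widely used HIF targets that did not pass the test (Car9 and Slc2a1), since the core was found in both kinds. The Pgk1 call rests on a probe set with chromosome 12 in its identifier. The promoter shown is that of the X-linked gene, and the probe set with X in its identifier did not pass (limma adjusted p = 0.0501). Each runs 5′ to 3′ on the strand of the gene and ends at the base before the start site, with the core in capitals on whichever strand it lies.
Egln3, chr12:54203875-54204124, minus strand: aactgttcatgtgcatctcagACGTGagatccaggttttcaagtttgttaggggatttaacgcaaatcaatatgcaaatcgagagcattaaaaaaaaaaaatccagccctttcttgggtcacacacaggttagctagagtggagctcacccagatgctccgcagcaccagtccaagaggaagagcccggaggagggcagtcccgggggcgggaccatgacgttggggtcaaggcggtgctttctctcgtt
Egln1, chr8:124949255-124949504, minus strand: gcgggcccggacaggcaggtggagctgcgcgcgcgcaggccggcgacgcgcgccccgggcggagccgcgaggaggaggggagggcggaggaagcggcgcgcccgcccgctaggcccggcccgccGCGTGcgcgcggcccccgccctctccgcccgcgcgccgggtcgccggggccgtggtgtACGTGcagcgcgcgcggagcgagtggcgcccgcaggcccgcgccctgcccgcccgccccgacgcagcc
Pgk1, chrX:106186850-106187099, plus strand: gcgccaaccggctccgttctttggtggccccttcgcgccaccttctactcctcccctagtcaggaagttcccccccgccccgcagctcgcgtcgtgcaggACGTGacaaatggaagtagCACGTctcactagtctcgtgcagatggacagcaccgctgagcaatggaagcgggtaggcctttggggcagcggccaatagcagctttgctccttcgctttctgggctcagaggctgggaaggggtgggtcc
Car9, chr4:43506776-43507025, plus strand: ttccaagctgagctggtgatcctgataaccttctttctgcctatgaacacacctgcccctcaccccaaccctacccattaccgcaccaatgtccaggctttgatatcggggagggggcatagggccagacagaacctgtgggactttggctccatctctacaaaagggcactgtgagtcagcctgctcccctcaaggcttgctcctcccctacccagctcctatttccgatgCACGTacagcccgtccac
Slc2a1, chr4:119108495-119108744, plus strand: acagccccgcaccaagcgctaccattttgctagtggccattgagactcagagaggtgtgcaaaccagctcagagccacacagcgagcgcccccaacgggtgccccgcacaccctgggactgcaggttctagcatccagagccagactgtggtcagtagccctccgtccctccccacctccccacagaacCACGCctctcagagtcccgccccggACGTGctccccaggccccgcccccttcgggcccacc
The cores lay at various distances from the start site. In Egln3 the only core ended 224 bases before it, while in Car9 it ended 13 bases before it. The Egln1 promoter was 86.0% G and C, and that of Egln3 50.8%. For the HIF target Ankrd37 and the aldolase Aldoc, which both fell, the 30 bases around the core nearest to the start site are given, for Aldoc at the first of its annotated start sites.
Ankrd37, chr8:45999851-45999880, minus strand: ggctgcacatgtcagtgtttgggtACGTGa
Aldoc, chr11:78323011-78323040, plus strand: ccacctctgaggGCGTGgccttaccctaga
The Ankrd37 core is ACGTG and ends 1 base before the start site. The Aldoc core is GCGTG and ends 45 bases before it, and no ACGTG was found in the 250 bases before either Aldoc start site.

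At the entry of glucose, one transporter rose and the other did not pass the test. Slc2a3, the high-affinity transporter GLUT3 (chromosome 6, 122727809 to 122802363), read 6.18, 6.19 and 5.87 in Rptor cKO and 4.43, 4.30 and 4.37 in wild type. All Rptor cKO arrays were higher, with a gap far wider than the spread of each group. The rise was 3.28-fold (1.71 on the log2 scale, SE 0.11, limma adjusted p = 0.00048). The wild-type values lay just above the negative-control medians of those arrays, 3.81 to 3.87, where changes on arrays tend to be compressed. On the Rptor cKO arrays these medians were 3.85 to 4.11. The controls' 95th percentile was 7.46 to 8.07 over all arrays, above every value of Slc2a3, Hk1, Pfkm, Pfkp, Aldoc and Ankrd37. Tpi1 and Pgk1 lay above it on every array, and Pdk3, Egln1 and Egln3 on some arrays only. Slc2a1, the main glucose transporter GLUT1 of keratinocytes (chromosome 4, 119108745 to 119137330), read 10.18, 9.99 and 9.90 in Rptor cKO and 9.70, 10.46 and 9.85 in wild type. Its groups overlapped and the difference of 0.017 (SE 0.19) had a 95% interval from -0.42 to 0.45, with the sign turned to -0.055 when array medians were subtracted. The log2 ratio of Slc2a3 to Slc2a1 within an array was higher by 1.70 (SE 0.28) in Rptor cKO, with the smallest exact permutation p the design allows, 0.1.

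Hexokinases trap glucose as glucose 6-phosphate. Hk1 (chromosome 10, 62268855 to 62379920), the constitutive form, read 4.86, 5.01 and 5.10 in Rptor cKO and 5.87, 5.73 and 5.65 in wild type. All Rptor cKO arrays were lower, and Hk1 fell 1.70-fold (-0.76, SE 0.11, limma adjusted p = 0.00509). Hk2, the inducible form, read 6.60, 6.53 and 6.16 against 6.79, 6.76 and 6.69. These groups did not overlap either, but the difference of -0.32 (SE 0.13) did not pass the test (adjusted p = 0.179). With any 1 array left out, Hk1 ranged from -0.82 to -0.70 and passed each time, but it did not pass with the male arrays alone (-0.74, adjusted p = 0.0695).

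Phosphofructokinase makes the committed step of glycolysis, and 2 of its 3 subunit genes fell. Pfkp, the platelet form (chromosome 13, 6579874 to 6649060), read 5.98, 5.62 and 5.84 in Rptor cKO and 6.57, 6.76 and 6.41 in wild type. The fall was 1.70-fold (-0.77, SE 0.13, limma adjusted p = 0.0100), but Rptor cKO array 2 decided its call: the difference was -0.67 in its absence, with an adjusted p of 0.05 that rounds from just over the threshold. Pfkm, the muscle form, read 5.40, 5.30 and 5.39 against 5.74, 5.80 and 5.72. It fell by 0.39 (SE 0.085, limma adjusted p = 0.0257), a fall narrow in size with no overlap. The Pfkm call was lost when any of the 6 arrays was left out, with adjusted p from 0.0519 to 0.115 and differences from -0.41 to -0.36. Pfkl, the liver form, read 6.98 to 7.08 in Rptor cKO and 7.12 to 7.34 in wild type, and its difference of -0.18 (SE 0.10) did not pass. Pfkfb3 and Pfkfb4 make fructose 2,6-bisphosphate, the activator of phosphofructokinase. Neither passed, with a difference of -0.27 (SE 0.14) for the first and -0.30 (SE 0.22) for the second. Pfkfb4 read 6.74 in wild-type array 4, while its other 5 values lay between 5.78 and 5.93.

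Aldolases split fructose 1,6-bisphosphate. Aldoc (chromosome 11, 78323073 to 78327781), the isoform best known from brain, read 4.83, 5.10 and 5.61 in Rptor cKO and 6.43, 6.92 and 6.46 in wild type. All Rptor cKO arrays were lower, with Rptor cKO array 3 the closest to wild type. Aldoc fell 2.68-fold (-1.42, SE 0.21, limma adjusted p = 0.00626) and passed with any 1 array left out, from -1.64 to -1.25. Rptor cKO array 3 was also the closest to wild type for the layer keratin Krt1, at 11.63 beside 10.30 and 9.81 on the other Rptor cKO arrays. The same array was the closest for Slc2a3, Hk1, Tpi1, Pgk1 and Pdk3. For Pfkm, Pfkp, Egln1 and Egln3 it was Rptor cKO array 1, and for Ankrd37 array 2. A link to the layer markers was not tested. Aldoa, the isoform of muscle and most other tissues, read 7.69 to 7.77 in Rptor cKO and 7.70 to 7.98 in wild type. The difference of Aldoa was -0.13 (SE 0.10), within the spread.

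Of the enzymes from triose phosphate to pyruvate, 2 of 5 measured fell and none rose. Tpi1, which interconverts the triose phosphates, read 8.53, 8.51 and 8.68 in Rptor cKO and 8.92, 8.93 and 8.99 in wild type, a fall of 0.37 (SE 0.09, limma adjusted p = 0.0373). Pgk1, the first enzyme of the pathway to yield ATP, read 8.24, 8.26 and 8.34 against 8.64, 8.66 and 8.75, a fall of 0.40 (SE 0.087, limma adjusted p = 0.0239). Both falls were small, with groups that did not overlap. Tpi1 did not pass without Rptor cKO array 1 or 2 or any 1 wild-type array, where its adjusted p ran from 0.0744 to 0.15. Pgk1 did not pass without Rptor cKO array 1 or 2 or wild-type array 5 or 6, where its adjusted p ran from 0.0544 to 0.102.

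Pgk1 was measured by 2 probe sets. The one used, with the higher mean, carries chromosome 12 in its identifier, although Pgk1 lies on the X chromosome (106187100 to 106203699) and a Pgk1 pseudogene lies on chromosome 12. The chromosome in the identifier was that of the gene for 99.59% of 22625 probe sets where both were known. The fall given for Pgk1 is that of the probe set used. The probe set with X in its identifier read 7.24, 7.46 and 7.42 in Rptor cKO and 7.66, 7.80 and 7.79 in wild type. It differed by -0.38 (SE 0.10), which did not pass when each probe set was tested (limma adjusted p = 0.0501), so the 2 probe sets moved alike in size. Signals of such near-identical copies cannot be separated on an array, and the same uncertainty holds for Gapdh and Pgam1, whose names also appear on probe sets of pseudogenes.

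The other 3 enzymes of this stretch did not pass. Gapdh, which makes the first NADH of the pathway, read 9.75, 10.02 and 9.96 in Rptor cKO and 9.58, 10.02 and 9.70 in wild type, a difference of 0.15 (SE 0.13). Pgam1 differed by -0.091 (SE 0.11) and Pkm, the pyruvate kinase of growing cells, by 0.021 (SE 0.15). The value of Pkm was -0.051 when array medians were subtracted.

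Lactate handling did not pass in any of its 4 genes. Ldha, the lactate dehydrogenase subunit that favours lactate production, read 7.66, 7.85 and 7.63 in Rptor cKO and 7.82, 8.0 and 7.89 in wild type (-0.19, SE 0.10). Ldhb, the subunit of oxidative tissues, read 7.11, 7.41 and 7.26 against 7.09, 7.27 and 7.21 (0.066, SE 0.11, and -0.006 with array medians subtracted). The lactate transporters Slc16a1 (MCT1) and Slc16a3 (MCT4) differed by -0.10 (SE 0.12) and 0.075 (SE 0.18). The 95% intervals ran from -0.42 to 0.041 for Ldha and from -0.34 to 0.49 for Slc16a3.

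The pyruvate dehydrogenase kinases keep pyruvate out of the mitochondria by switching off pyruvate dehydrogenase, and 1 of the 4 fell. Pdk3 (X chromosome, 93764616 to 93832150) read 6.25, 6.04 and 6.40 in Rptor cKO and 7.94, 7.32 and 7.36 in wild type. It fell 2.48-fold (-1.31, SE 0.18, limma adjusted p = 0.00465), and with any 1 array left out from 1.11 to 1.42 on the log2 scale. Pdk3 lies on the X chromosome and the groups differed in the sex of the embryos. With the male arrays alone, which sets Rptor cKO array 2 by itself against the wild type, the difference was -1.50 (adjusted p = 0.0341), with the lone array assumed to vary like the others. Pdk1, a HIF target, differed by -0.19 (SE 0.14), Pdk2 by -0.13 (SE 0.19) and Pdk4, a gene of fasting and fat use, by -0.40 (SE 0.19, adjusted p = 0.26). Pdk4 read 4.13 to 4.39 in Rptor cKO and 4.37, 5.13 and 4.48 in wild type, low values on all arrays.

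**Figure D2:**
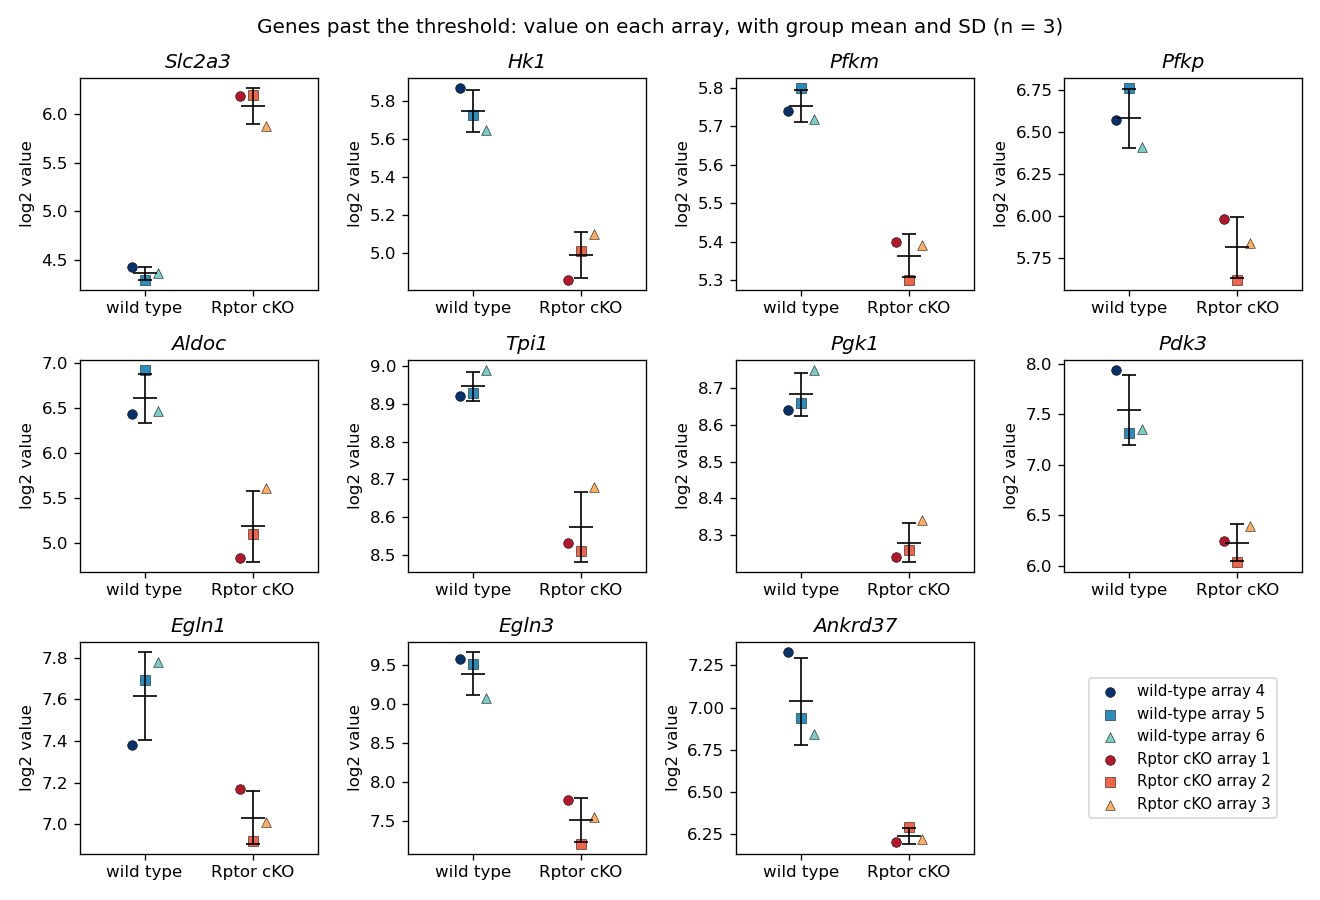
Log2 values of the 11 genes that passed the test, 1 panel a gene with its own vertical scale, wild type on the left and Rptor cKO on the right; symbols are arrays, the horizontal mark is the group mean and the bar the SD (n = 3). Slc2a3 is the one panel with Rptor cKO above wild type, at 5.87 to 6.19 against 4.30 to 4.43.

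In the HIF system the RNA of the alpha subunit did not pass, and of its 3 hydroxylases Egln3 and Egln1 fell and Egln2 did not pass. Hif1a read 7.17, 6.83 and 6.84 in Rptor cKO and 6.85, 6.96 and 7.10 in wild type. These groups overlapped, with a difference of -0.022 (SE 0.12) and a 95% interval from -0.30 to 0.26; the sign was the opposite, 0.018, with quantile normalization. HIF-1 alpha is controlled mainly as a protein, which arrays do not measure. The name Hif1a also stands on a probe set shared with Gm15283, which was not used.

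Egln3 (PHD3; chromosome 12, 54178981 to 54203874), a hydroxylase that is itself a HIF target, had the largest fall of the 34 genes. It read 7.77, 7.21 and 7.56 in Rptor cKO and 9.58, 9.51 and 9.07 in wild type. Every Rptor cKO array was more than 1 log2 unit below every wild-type array. Egln3 fell 3.65-fold (-1.87, SE 0.18, limma adjusted p = 0.00144) and kept its call in all 13 alternative fits, from -2.17 to -1.72. Egln1 (PHD2; chromosome 8, 124908587 to 124949254), the main oxygen sensor of HIF-1 alpha and also a HIF target, read 7.17, 6.92 and 7.01 against 7.38, 7.69 and 7.78. It fell by 0.58 (SE 0.13, limma adjusted p = 0.0262). The Egln1 call was lost without Rptor cKO array 2 or 3 or wild-type array 5 or 6, with adjusted p from 0.0684 to 0.116. Egln2 (PHD1), which is not induced by hypoxia, read 7.45, 7.60 and 7.60 against 7.42, 7.59 and 7.5, a difference of 0.046 (SE 0.094) that was -0.026 with array medians subtracted. Vhl, the substrate receptor of the ligase, read 4.61 to 4.85 in Rptor cKO and 4.91 to 5.05 in wild type; its groups did not overlap and its difference of -0.24 (SE 0.10) did not pass (adjusted p = 0.194).

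Of the 5 HIF targets outside glycolysis, 1 fell and none rose. Ankrd37 (chromosome 8, 45996908 to 46000414), an ankyrin repeat protein induced by HIF-1, read 6.20, 6.29 and 6.22 in Rptor cKO and 7.33, 6.94 and 6.84 in wild type. The Rptor cKO values were tightly grouped below all wild-type values, a 1.73-fold fall (-0.79, SE 0.13, limma adjusted p = 0.00972). It kept its call with any 1 array left out but not with the male arrays alone (-0.74, adjusted p = 0.148). Vegfa, the growth factor of vessels, read 7.87, 7.89 and 7.89 in Rptor cKO and 8.0, 8.40 and 7.83 in wild type (-0.20, SE 0.14). Ndrg1, a hypoxia-induced protein of differentiating epithelia, read 7.72, 7.80 and 7.92 against 7.82, 8.88 and 7.87 (-0.37, SE 0.26). P4ha1, a collagen prolyl hydroxylase subunit, read 7.05, 6.92 and 6.53 against 6.21, 7.08 and 6.51 (0.24, SE 0.22). Car9, carbonic anhydrase IX and a standard marker of hypoxic tissue, read 4.15 to 4.24 in Rptor cKO and 3.95 to 4.06 in wild type. Its values lay close to the median of the negative controls, and its difference of 0.17 (SE 0.086) did not pass although the groups did not overlap.

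**Figure D3:**
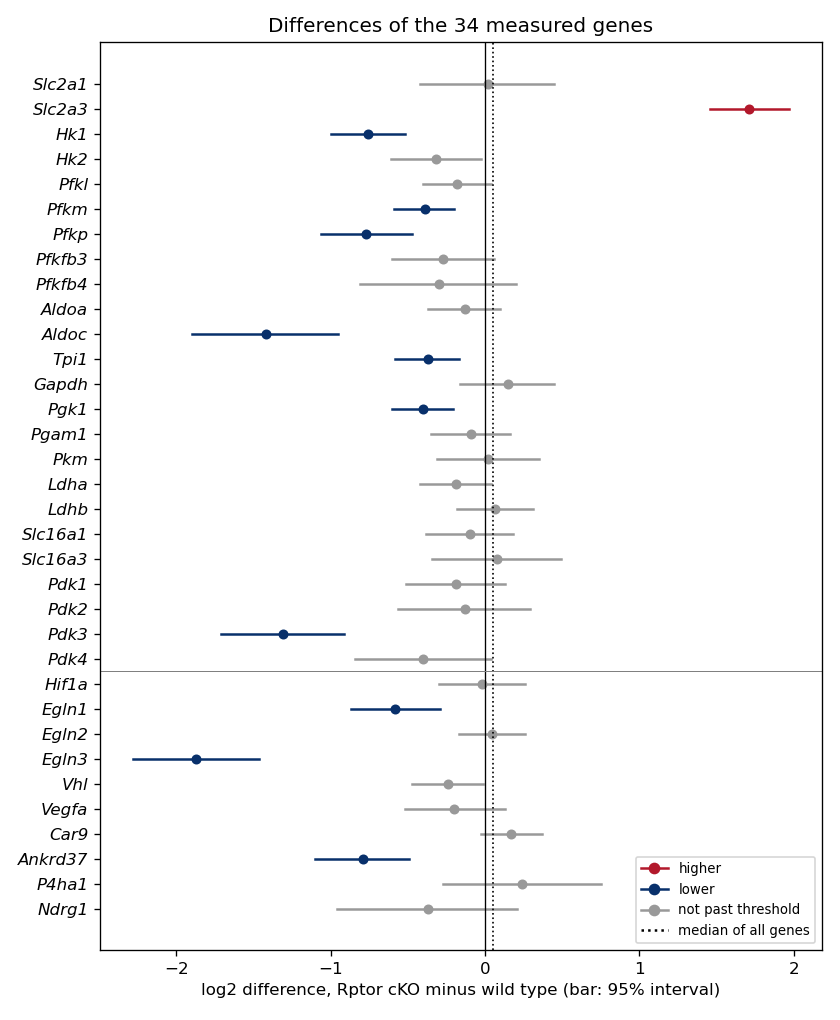
Log2 difference of each of the 34 genes, Rptor cKO minus wild type (horizontal axis), with its 95% interval from limma; red passed the test as higher, blue as lower, grey did not pass, and the dotted line is the median of all genes, 0.05. The line across separates glycolytic genes, above, from HIF genes; Egln3 has the lowest value, -1.87, and Slc2a3 the highest, 1.71.

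For each of 18 isoform pairs the log2 ratio within an array was compared between the groups by a two-sided exact permutation test, which cannot go below p = 0.1 with 3 against 3 arrays. The groups did not overlap for 13 of the pairs, which share genes, and overlapped for 5; no such share over other gene pairs was computed. The ratio of Egln3 to Egln2 was 0.32, -0.39 and -0.038 in Rptor cKO and 2.16, 1.92 and 1.56 in wild type, a difference of -1.92 (SE 0.27, exact p = 0.1). The difference between the groups was -1.29 (SE 0.25) for Aldoc to Aldoa, -1.12 (SE 0.36) for Pdk3 to Pdk1, -0.59 (SE 0.11) for Pfkp to Pfkl and 0.45 (SE 0.21) for Hk2 to Hk1, where Rptor cKO array 3 at 1.05 lay next to wild-type array 6 at 1.04. The ratio of Ldhb to Ldha, neither of which passed alone, was -0.55, -0.44 and -0.38 in Rptor cKO and -0.73, -0.73 and -0.68 in wild type. Its difference of 0.25 (SE 0.054) came with groups that did not overlap. The SE of a ratio came from the ratios of that pair alone, unlike the SE of a single gene, so these cannot be set side by side. These ratios each had the smallest p the design allows, 0.14 after Benjamini-Hochberg adjustment over the 18 pairs, so none passed. The 5 pairs that overlapped were Pfkfb4 to Pfkfb3 (-0.03, exact p = 1.0), Pdk2 to Pdk1 (0.06, exact p = 0.8), Slc16a3 to Slc16a1 (0.17, exact p = 0.3), Pdk4 to Pdk1 (-0.20, exact p = 0.3) and Pdk4 to Pdk2 (-0.26, exact p = 0.2).

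The spread among wild-type arrays followed a pattern. Wild-type array 5 was the highest of its group for 22 of the 34 genes, 64.7%, beside 39.6% of all genes tested, and it was the lowest for 2. Its excess over the mean of wild-type arrays 4 and 6 was 1.03 for Ndrg1, 0.72 for P4ha1, 0.71 for Pdk4 and 0.69 for Slc2a1. Next came Slc16a3 at 0.68, Vegfa at 0.48, Aldoc at 0.47 and Pkm at 0.44. Pfkfb3 and Pdk2 followed at 0.43 and Pdk1 at 0.40. The excess was lowest for Pfkfb4 and Pdk3, both at -0.33. Among 33 other HIF targets it was the highest of its group for 18, or 54.5%. Among the 4 genes that fell furthest the excess was mixed, at 0.19 for Egln3, 0.47 for Aldoc, -0.33 for Pdk3 and -0.15 for Ankrd37. Without wild-type array 5 the difference was -0.03 for Ndrg1, -0.036 for Vegfa, 0.25 for Slc2a1 and 0.48 for P4ha1, and none of these passed. Among the Rptor cKO arrays the highest value was spread as 12, 11 and 11 genes over arrays 1 to 3. These counts describe the arrays and were not tested, and no batch is named in the labels.

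**Figure D4:**
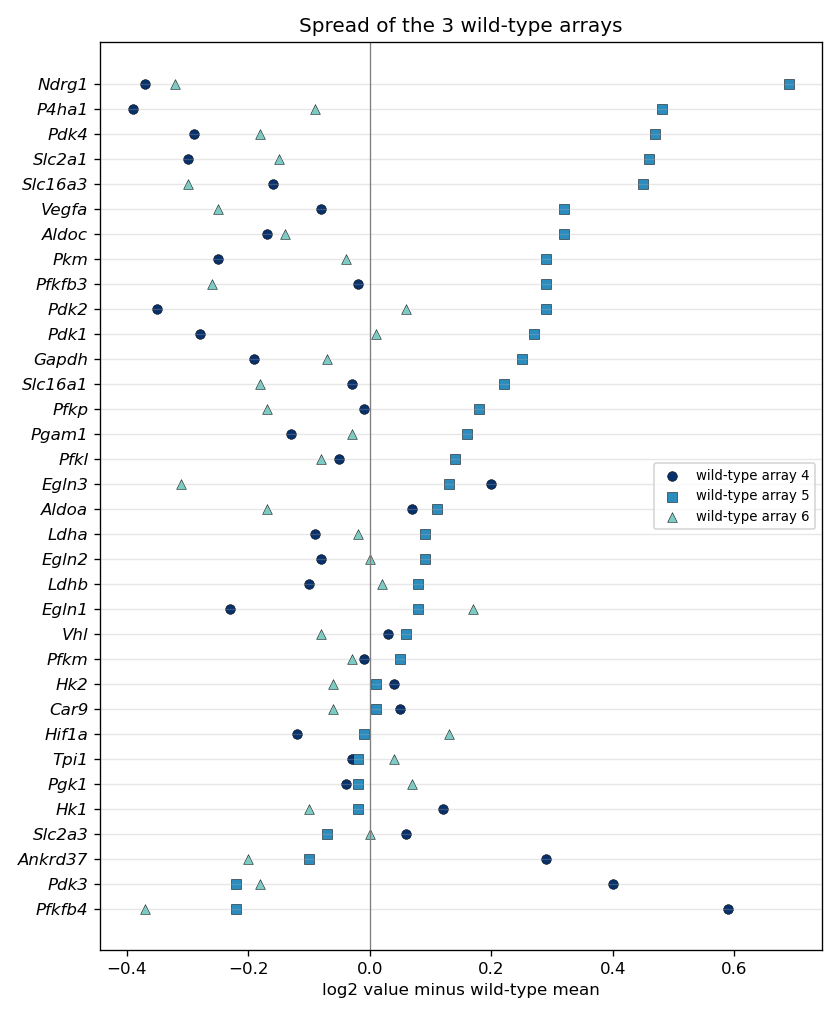
Log2 value minus the wild-type mean (horizontal axis) of the 34 genes on wild-type arrays 4, 5 and 6, sorted by the excess of array 5 over the other wild-type arrays. Array 5 lies to the right for most genes in the upper part, by 1.03 for Ndrg1, and to the left for Pdk3 and Pfkfb4 at the bottom.

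Other genes of the same pathways were read from 4 further lists, which were also chosen with earlier results of these data known. Their shares are a description, given beside the 9.60% of all genes tested that passed in either direction. Of 30 other genes of glycolysis, gluconeogenesis and pyruvate entry, 1 fell and none rose. This was 3.33% of the list, under the share over all genes, and the median difference was 0.044. The gene was Pgm2, a phosphoglucomutase, at 5.93, 5.87 and 6.02 in Rptor cKO against 6.59, 6.53 and 6.67 (-0.66, SE 0.09, limma adjusted p = 0.00499). Of 16 other glucose transporters and their regulators, 2 fell and 1 rose, 18.8% of the list. The transporter Slc2a12 fell by 0.81 (SE 0.11), and its Rptor cKO values of 3.49, 3.83 and 3.75 lay under the median of the negative controls, so the size of this fall is not exact. Arrdc4, an arrestin that takes glucose transporters off the surface, fell by 0.83 (SE 0.19), and the fructose transporter Slc2a5 rose by 0.39 (SE 0.10, limma adjusted p = 0.0466). The call of Slc2a5 was lost when array medians were subtracted (0.31, adjusted p = 0.101), and quantile normalization also ended it (0.34, adjusted p = 0.0697). It was also lost without Rptor cKO array 1, 2 or 3 or wild-type array 5 or 6 (adjusted p from 0.0866 to 0.165). Arrdc4 did not pass without Rptor cKO array 1 or 2 or wild-type array 4 or 6 (adjusted p from 0.0535 to 0.125).

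Of 15 other HIF subunits and regulators, 4 fell and 1 rose, 33.3% of the list beside 9.60% of all genes. Epas1, the HIF-2 alpha subunit, read 5.46, 5.30 and 6.69 in Rptor cKO and 9.34, 8.67 and 8.45 in wild type. It fell 8.03-fold (-3.01, SE 0.37, limma adjusted p = 0.00341), with Rptor cKO array 3 again the closest to wild type. Hif3a, which can act against the other alpha subunits, read 6.98, 6.75 and 6.65 against 5.89, 6.16 and 5.75, a rise of 0.86 (SE 0.13, limma adjusted p = 0.0079). Cited2, which competes with HIF for its coactivators, fell by 1.10 (SE 0.19), Arntl, the clock factor BMAL1, by 1.18 (SE 0.18) and Os9, a lectin of the endoplasmic reticulum, by 0.52 (SE 0.12). Without Rptor cKO array 2, Cited2 (-1.05, adjusted p = 0.0616) and Os9 (-0.50, adjusted p = 0.119) did not pass. Os9 also did not pass without Rptor cKO array 1 or any 1 wild-type array (adjusted p from 0.0688 to 0.0824), nor with limma trend (adjusted p = 0.0541).

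Of 33 other HIF targets, 9 fell and 1 rose, 30.3% of the list beside 9.60% of all genes, with a median difference of -0.23. Higd1a, a mitochondrial protein induced by hypoxia, read 7.43, 7.12 and 7.53 in Rptor cKO and 9.23, 9.29 and 9.69 in wild type, a 4.12-fold fall (-2.04, SE 0.15, limma adjusted p = 0.000928). Bnip3, a receptor for mitophagy, fell by 1.73 (SE 0.14), Fam162a, a mitochondrial protein, by 0.84 (SE 0.11) and Rora, a nuclear receptor, by 3.25 (SE 0.43). Rora read 6.37, 5.83 and 7.48 against 10.53, 9.28 and 9.62 on the probe set used, and its difference was -1.61 with the mean of its probe sets (adjusted p = 0.00423). Car12, a carbonic anhydrase, rose by 0.59 (SE 0.13), a call lost with array medians subtracted (0.52, adjusted p = 0.0724). It was also lost without Rptor cKO array 1 or 2 or wild-type array 4 (adjusted p from 0.0556 to 0.0941). With the male arrays alone, Pgm2, Slc2a12, Slc2a5, Arrdc4, Hif3a, Cited2, Os9, Fam162a and Car12 of the 4 lists did not pass, and their differences kept their direction. The falls among the other HIF targets numbered 5 without Rptor cKO array 2, and 6 without Rptor cKO array 1 or array 3.

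**Figure D5:**
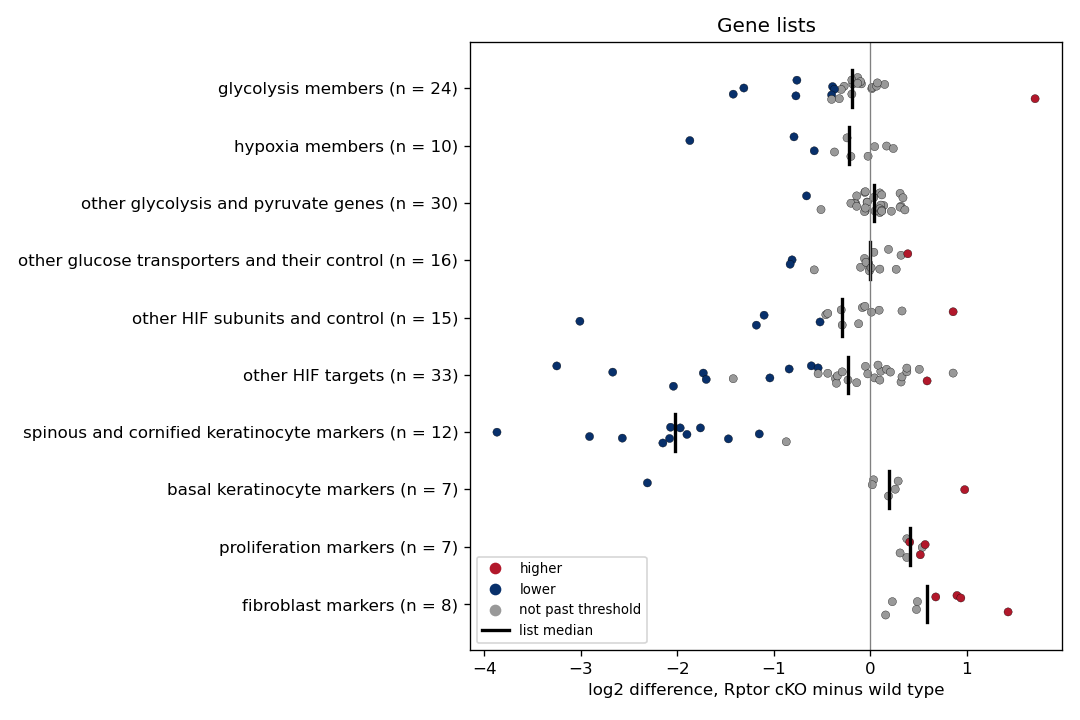
Log2 difference, Rptor cKO minus wild type (horizontal axis), of the genes in each list, 1 point a gene, coloured by whether it passed the test, with the list median as a black bar. The medians of the glycolytic genes, -0.19, and of the HIF genes, -0.22, lie close to 0 beside that of the spinous and cornified markers, -2.02.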

How the data were processed

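RNA of 6 epidermal samples was labelled with biotin using the Ambion Expression WT kit, per the labels' protocols. The deposited log2 values were made with RMA and Partek on mm10, per the submitters' processing notes (versions: not given in the sources used here). Standard RMA makes arrays alike in distribution, and a general change of RNA cannot be seen in arrays made alike. The deposited arrays were not fully alike. Their medians, taken over every probe set, were 4.22, 4.22 and 4.15 for knockout arrays 1 to 3. Wild-type arrays 4 to 6 had medians of 4.16, 4.14 and 4.08. The cause of this difference was not tested. Of 72688 probe sets, 6732 controls were left out and 30604 naming 1 gene were used, the one with the highest mean where a gene had several. Symbols were updated through Entrez ID (22818 matched) or a unique synonym.

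Rptor cKO was compared with wild type with limma 3.58.1 (lmFit, eBayes; R 4.3.3), two-sided, with group as the sole term, after a test on simulated data. SE is the moderated standard error for single genes, and for isoform ratios the standard error from the array ratios alone, without moderation. The series calls the samples biological replicates. Alternatives were other scalings, a filter on dim genes, probe set averages, limma trend and robust, each array left out, and the male arrays alone. All members are named, and of each pathway list up to 4 genes past the threshold in each direction, those of smallest p. The members and lists were chosen with earlier results of these data known. Tables and plots were made in Python 3.11.15 (pandas 2.3.3, matplotlib 3.10.9).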

Additional observations from a re-analysis of the deposited data

How the results depend on the processing

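With 3 arrays a group, the estimated differences of the uncalled members ran from -0.40 (Pdk4) to 0.24 (P4ha1) on the log2 scale. Their 95% intervals reached further, down to -0.96 for Ndrg1 and up to 0.75 for P4ha1. Larger differences in these genes are therefore not excluded. No paired analysis was made, because no litter is named for the samples and the replicate numbers do not link the groups. A part of litter was not tested. Of the 11 called genes, none changed direction in the 13 alternatives, and 4 (Slc2a3, Aldoc, Pdk3 and Egln3) passed in every one. None of the 23 uncalled genes passed in any. The count of all genes that passed was 2886, ran from 900 (without Rptor cKO array 2) to 2444 with 1 array left out, with 1854 without Rptor cKO array 1, and was 867 with the male arrays alone. There 4 glycolytic genes and 1 HIF gene passed. With 1 array left out, 4 to 7 glycolytic and 2 to 3 HIF genes passed, and the medians ran from -0.26 to -0.12 and from -0.30 to -0.033. Fewer samples were fitted in these. With array medians subtracted, 75.7% of the calls over all genes were lower, beside 62.1%. Of the uncalled genes, 8 changed sign in an alternative. Subtracted medians gave -0.055 for Slc2a1, -0.051 for Pkm, -0.006 for Ldhb and -0.026 for Egln2, quantile normalization 0.018 for Hif1a, and the male arrays -0.018 for Slc2a1 and 0.018 for Pdk2. With 1 array left out, Slc2a1 ran from -0.14 to 0.25, Pkm from -0.11 to 0.17, Ldhb from -0.012 to 0.14, Slc16a1 from -0.19 to 0.011, Slc16a3 from -0.072 to 0.30, Pdk2 from -0.31 to 0.021 and Hif1a from -0.13 to 0.042. Tpi1 and Pgk1 also lost their calls with quantile normalization (-0.28 and -0.32) and with limma trend. The cause of these changes was not tested.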
